A study of Mus musculus with 10 samples.

Results

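The genes described here are 10 genes of hepatic insulin action and fasting metabolism, named one by one for this account: Igfbp1, Igfbp2, G6pc, Pck1, Fbp1, Irs1, Irs2, Insr, Foxo1 and Ppargc1a. All 10 were found among the 55385 genes of the count table of the EP300 experiment, and all 10 were among the 14200 genes abundant enough to be tested. They were chosen with their values in the comparison of EP300 KO with WT libraries in view, so those values are given below as a description and carry no test. RNA came from sorted cells of perfused mouse liver, labelled as hepatocytes, of strain C57BL/6J 129SV in 4 libraries whose titles begin with HCC (hepatocellular carcinoma); the labels do not say whether tumour or non-tumour cells were sorted, or by which marker. All mice carried floxed EP300 alleles (EP300f/f), were fed DDC, which damages the bile ducts and parenchyma of the liver, and received pT3-cMet, a plasmid for the receptor tyrosine kinase cMet, by hydrodynamic tail vein injection, a treatment labelled as lasting 5 months. The 2 libraries labelled EP300-/- (KO-labelled below) came from mice given the virus AAV-TBG-Cre, in which the TBG promoter directs Cre to hepatocytes, and the 2 libraries labelled EP300f/f (WT-labelled below) from mice given AAV-TBG-GFP. Age and sex are not in the labels, cells other than hepatocytes would keep EP300, and the labels mention pooled sequencing without tying a library to an animal, so the spread between libraries may be technical.

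In the fed liver, insulin binds its receptor (Insr), the adaptor proteins Irs1 and Irs2 pass the signal to the kinase Akt, and Akt keeps the transcription factor FOXO1 out of the nucleus. In fasting, FOXO1 stays nuclear and, together with the coactivator PGC-1alpha (Ppargc1a) and glucagon signals, raises genes for glucose output (G6pc, Pck1) and the gene of the secreted IGF-binding protein Igfbp1, a classical readout of low insulin action. EP300 is a histone acetyltransferase that such factors recruit.

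Insulin is known to repress some FOXO1 targets through a short promoter element that FOXO1 binds, so the RefSeq promoters of 4 genes are shown (build GRCm38.p6, 250 bases before to 50 after the start, 5′ to 3′ along the gene). Igfbp1, G6pc and Irs2 are shown because all 3 hold the same FOXO-type element and differed in the libraries. Pck1 is shown because it holds a cAMP-type element and, within these bases, no match to that FOXO-type element. Bases further upstream were not searched, and variants of the elements were not sought. Capitals mark CAAAACA or its reverse complement TGTTTTG, the core of the insulin response element, and ACGTCA, the core of the cAMP response element.
Igfbp1, chr11:7197537-7197836, plus strand: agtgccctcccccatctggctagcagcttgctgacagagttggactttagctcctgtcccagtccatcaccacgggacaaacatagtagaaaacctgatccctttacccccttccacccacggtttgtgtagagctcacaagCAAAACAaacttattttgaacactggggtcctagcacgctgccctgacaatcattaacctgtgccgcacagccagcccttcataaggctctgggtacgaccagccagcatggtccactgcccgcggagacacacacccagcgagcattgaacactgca
G6pc, chr11:101367466-101367765, plus strand: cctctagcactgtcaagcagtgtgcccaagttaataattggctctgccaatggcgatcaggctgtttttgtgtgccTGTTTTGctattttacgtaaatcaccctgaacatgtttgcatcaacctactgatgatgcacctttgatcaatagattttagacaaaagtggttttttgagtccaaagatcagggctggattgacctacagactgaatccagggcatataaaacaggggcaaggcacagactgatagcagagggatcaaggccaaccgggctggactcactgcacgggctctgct
Irs2, chr8:11008880-11009179, minus strand: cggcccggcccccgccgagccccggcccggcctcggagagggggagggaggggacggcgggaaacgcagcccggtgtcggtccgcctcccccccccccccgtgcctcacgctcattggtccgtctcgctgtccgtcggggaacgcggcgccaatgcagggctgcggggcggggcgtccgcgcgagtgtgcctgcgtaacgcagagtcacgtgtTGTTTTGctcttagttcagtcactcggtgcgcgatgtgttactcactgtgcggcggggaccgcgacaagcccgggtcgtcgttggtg
Pck1, chr2:173152823-173153122, plus strand: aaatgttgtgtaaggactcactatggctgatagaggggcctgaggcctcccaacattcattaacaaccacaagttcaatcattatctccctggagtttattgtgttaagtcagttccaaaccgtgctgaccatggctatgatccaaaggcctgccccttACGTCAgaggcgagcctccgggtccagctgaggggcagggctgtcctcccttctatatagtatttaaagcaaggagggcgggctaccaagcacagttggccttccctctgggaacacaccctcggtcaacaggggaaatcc
On both strands, CAAAACA was found in the promoters of 4 of the 9 member genes that the table holds (Igfbp1, G6pc, Irs1 and Irs2), and in 6.28% of all 32851 promoters of that length. The first base of the match lay 108 bases before the start in Igfbp1, 174 in G6pc, 37 in Irs2, and 111 and 32 in Irs1. ACGTCA was found in Pck1, 91 bases before the start, and in Ppargc1a, 50 bases before it, against 7.51% of all promoters. GTAAACA, the general forkhead element, was in 0 of the member promoters and in 3.65% of all, and the palindromic element of the liver factor HNF1 in 0 and 0.00913%. No matches in these promoters overlapped each other. A match is a description of the letters, and binding was not measured.

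The libraries were sequenced to similar depth, with 17709799 to 18831671 reads counted to genes. The targeted gene, Ep300, stood at 62.3 and 57.8 CPM (read counts scaled to a common TMM-adjusted library size) under the WT label and at 73.6 and 72.2 CPM under the KO label. It rose by 0.28 on the log2 scale (SE 0.07) with an edgeR adjusted p = 0.00498, which became 0.128 without EP300 WT replicate 2. Ep300 reads thus go against the KO label, a whole-gene count does not resolve the floxed exon, and directions below are between labels. Xist, the RNA of the inactive X chromosome, had 3 and 2 counts in the WT-labelled and 2310 and 1411 in the KO-labelled libraries, while the Y-linked Ddx3y was present in all 4 (46.7 to 56.8 CPM). Label and sex make-up therefore move together and cannot be told apart here. The 8 hepatocyte markers were abundant throughout, with summed levels of 106070 to 106840 CPM in WT-labelled and 95878 to 99227 in KO-labelled libraries (3 of 8 higher, 3 lower). Summed markers of stellate cells and fibroblasts were 284 to 293 against 181 to 188 CPM (5 of 9 lower, 0 higher). Without EP300 WT replicate 1, Reln was the 1 stellate marker still called, and Reln alone went from 119 and 113 to 30.9 and 32.8 CPM. Summed markers of endothelium were 292 to 300 against 221 to 250 CPM (5 of 8 lower, 0 higher, and 3 lower without EP300 WT replicate 1), and those of macrophages 567 to 568 against 513 to 517 CPM (3 of 8 higher, 1 lower, and 1 higher without EP300 WT replicate 2). Cholangiocyte markers summed to 157 to 159 against 120 to 121 CPM (2 of 5 tested lower, 0 higher). Erythroid markers summed to 10.5 to 11.1 against 49.4 to 51.8 CPM (1 of 3 tested higher, 0 lower). The 1 called was Alas2, and the median log2 fold change of the 3 was 0.28. Neutrophil markers summed to 14.7 to 16.6 against 9.93 to 12.5 CPM, and lymphocyte markers to at most 2.01 CPM in any library. The part of these cell types in the results below was not tested. In bulk RNA, fewer cells of a type and less RNA per cell cannot be told apart.

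Igfbp1 and the glucose output genes lay on opposite sides. Igfbp1 was 5.64-fold lower in the KO-labelled libraries, whereas the glucose output genes G6pc and Pck1, which share its fasting control, were 1.66-fold and 1.62-fold higher. The genes that receive and pass on the insulin signal, Insr and Irs2, were lower by a smaller step (0.734-fold and 0.728-fold), and Foxo1 itself was level. With the threshold of an adjusted p below 0.05 in the edgeR fit, 3 of the 10 genes passed as higher and 4 as lower, against 34.2% of all tested genes in either direction (16.7% higher, 17.5% lower). CPM values of the groups did not overlap for 9 of the 10, against 66.4% of all tested genes (32.9% with KO-labelled values higher, 33.5% lower). Since the genes were chosen on this contrast, nothing is read from these counts. Under scaling to library size alone, 37.7% of the genes called in the whole table were higher, against 48.8% with TMM scaling.

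Igfbp1 (ENSMUSG00000020429, chromosome 11, 7197782 to 7202546, mm10) encodes a secreted protein that binds IGF1 and IGF2 in the circulation. It measured 2351 and 2286 CPM in the WT-labelled libraries and 403 and 419 CPM in the KO-labelled libraries. Both KO-labelled values lay far below both WT-labelled values, and replicates of a label were close to each other. The log2 fold change was -2.50 (SE 0.05) and ran from -2.56 to -2.46 over 11 alternative fits. Per base of exon, it was the 28th most abundant of the 14200 tested genes in the WT-labelled libraries and the 169th in the KO-labelled libraries. Its log2 fold change was the 107th lowest of all 14200 tested genes. Among the 1244 genes of at least 100 CPM in the WT-labelled libraries, 4 had a lower log2 fold change. That minimum was set in the label where Igfbp1 is high, so nothing is read from the rank.

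Igfbp2 (ENSMUSG00000039323, chromosome 1, 72824503 to 72852474), the related binding protein whose hepatic mRNA also rises in fasting, showed no such drop. It measured 344 and 338 CPM in the WT-labelled and 330 and 315 CPM in the KO-labelled libraries. The log2 fold change was -0.08 (SE 0.06). The KO-labelled values were just below the WT-labelled ones. Per base of exon, Igfbp1 was 8.28 and 8.19 times as abundant as Igfbp2 in the WT-labelled libraries and 1.48 and 1.61 times in the KO-labelled libraries.

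The glucose output genes lay on the other side of zero. G6pc (ENSMUSG00000078650, chromosome 11, 101367561 to 101377903), the catalytic subunit of glucose-6-phosphatase that releases free glucose, measured 390 and 372 CPM in WT-labelled and 669 and 595 CPM in KO-labelled libraries (log2 fold change 0.73, SE 0.06). Pck1 (ENSMUSG00000027513, chromosome 2, 173153048 to 173159273), the cytosolic enzyme that commits oxaloacetate to gluconeogenesis, measured 3323 and 3241 CPM against 5334 and 5295 CPM (0.70, SE 0.04). For both genes the KO-labelled libraries were the higher ones, with no overlap. Fbp1 (ENSMUSG00000069805, chromosome 13, 62864753 to 62888282), fructose-1,6-bisphosphatase, measured 546 and 556 CPM against 661 and 670 CPM, a smaller difference in the same direction (0.27, SE 0.05). Without EP300 WT replicate 1, Fbp1 missed the threshold at a log2 fold change of 0.26.

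The proportion of Igfbp1 to each glucose output gene is shown library by library. Per base of exon, Igfbp1 was 9.55 and 9.74 times as abundant as G6pc in the WT-labelled libraries and 0.952 and 1.12 times in the KO-labelled libraries. Against Pck1, the ratio was 1.59 and 1.59 in WT-labelled and 0.170 and 0.178 in KO-labelled libraries. Pck1 and G6pc kept their proportion, with Pck1 at 6.01 and 6.14 times G6pc in WT-labelled and 5.61 and 6.26 times in KO-labelled libraries.

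**Figure D1:**
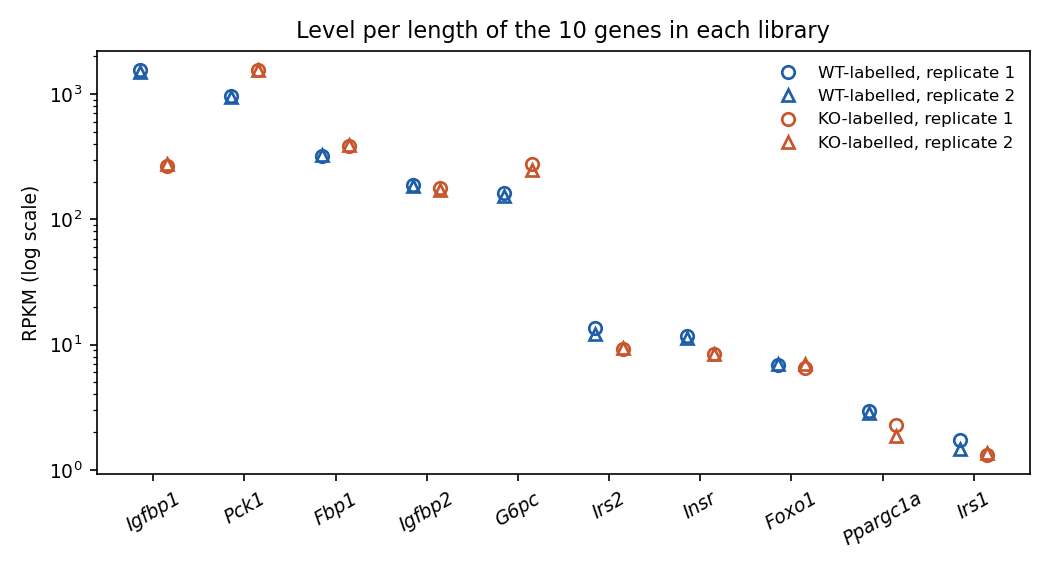
Level of each of the 10 genes in RPKM (CPM per 1000 bases of exon, log axis) in the 2 WT-labelled (blue) and 2 KO-labelled (orange) libraries, 1 symbol per library. Igfbp1 leads in the WT-labelled libraries at 1541 and 1499 RPKM and drops to 264 and 275, whereas Pck1 and G6pc sit higher in the KO-labelled libraries.

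The order of levels changed at the top. Per base of exon, the order in the WT-labelled libraries was Igfbp1 (1520 ± 30.1 RPKM, SD, n = 2), Pck1 (957 ± 16.9), Fbp1 (324 ± 3.85), Igfbp2 (185 ± 2.29), G6pc (158 ± 5.27), Irs2 (12.8 ± 1.08), Insr (11.5 ± 0.280), Foxo1 (6.96 ± 0.122), Ppargc1a (2.90 ± 0.0608) and Irs1 (1.60 ± 0.197), with no overlap between neighbours. In the KO-labelled libraries Pck1 (1550 ± 7.98 RPKM, SD, n = 2) and Fbp1 (391 ± 3.75) came before Igfbp1 (269 ± 7.77) and G6pc (262 ± 21.7), whose values overlapped. The enzymes and binding proteins were thus more than 10 times as abundant per length as any gene of the signalling and transcriptional control group in every library.

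Insr and Irs2 were lower together. Insr (ENSMUSG00000005534, chromosome 8, 3122061 to 3279617), the insulin receptor, measured 161 and 155 CPM in WT-labelled and 116 and 116 CPM in KO-labelled libraries (log2 fold change -0.45, SE 0.06). Irs2 (ENSMUSG00000038894, chromosome 8, 10984681 to 11008458), the adaptor that FOXO1 itself is known to induce in fasting, measured 86.1 and 76.4 CPM against 58.5 and 59.7 CPM (-0.46, SE 0.07). In neither gene did the labels overlap. The ratio of Insr to Irs2 per base of exon stayed between 0.858 and 0.934 in all 4 libraries.

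Irs1 (ENSMUSG00000055980, chromosome 1, 82233101 to 82291416), the other main insulin receptor substrate, was the least abundant of the group per base of exon. It measured 15.9 and 13.4 CPM in WT-labelled and 11.97 and 12.46 CPM in KO-labelled libraries, with a log2 fold change of -0.26 (SE 0.12). Of 11 alternatives, library size scaling alone took it past the threshold (log2 fold change -0.33). Another gene covers 30.9% of its exon bases, so reads may be shared. Per base of exon, Irs2 was 7.81 and 8.25 times as abundant as Irs1 in the WT-labelled and 7.07 and 6.92 times in the KO-labelled libraries.

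Foxo1 (ENSMUSG00000044167, chromosome 3, 52268336 to 52353221) measured 59.5 and 61.0 CPM in WT-labelled and 56.3 and 60.5 CPM in KO-labelled libraries. The labels overlapped, and the log2 fold change of -0.05 (SE 0.07) ran from -0.11 to 0.02 over the alternatives. FOXO1 activity depends on its phosphorylation, acetylation and nuclear location, which mRNA does not measure. Ppargc1a (ENSMUSG00000029167, chromosome 5, 51454250 to 51567726), the fasting-induced coactivator of gluconeogenic genes, measured 19.4 and 18.8 CPM against 15.1 and 12.3 CPM (-0.48, SE 0.12). The KO-labelled libraries were lower while G6pc and Pck1 were higher in them. Ppargc1a missed the threshold when EP300 WT replicate 1 (log2 fold change -0.46) or EP300 WT replicate 2 (-0.49) was left out, and with no filter on low counts (-0.47).

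**Figure D2:**
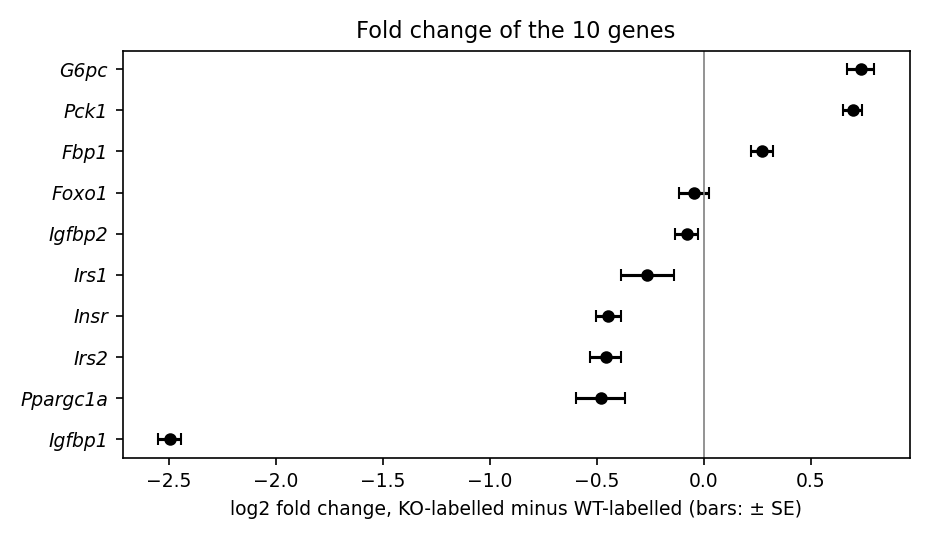
Log2 fold change (KO-labelled minus WT-labelled, horizontal axis) of each of the 10 genes from the edgeR fit, with bars for ± SE. Igfbp1 lies at -2.50, the other 9 lie between -0.48 and 0.73, and the glucose output genes are the 3 above zero.

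The genes beside Igfbp1 on chromosome 11 were lower as well; this neighbourhood was examined after the values were known. Within 500 kb on either side, measured between the lower coordinates of the genes, 2 other genes were tested and both fell. Adcy1 (7063489 to 7178506), an adenylate cyclase that makes cAMP, ends 19276 bases before Igfbp1. It measured 71.0 and 65.5 CPM in WT-labelled and 3.01 and 3.90 CPM in KO-labelled libraries (log2 fold change -4.30, SE 0.12, edgeR adjusted p = 2.10e-13). Igfbp3 (7206086 to 7213923), the main carrier of circulating IGF1, runs on the opposite strand, and its transcript ends 3540 bases from the end of Igfbp1. It measured 36.0 and 37.1 CPM against 10 and 10.5 CPM (-1.83, SE 0.10, edgeR adjusted p = 5.76e-10). In liver Igfbp3 is known to be made largely by cells other than hepatocytes, and a sort for hepatocytes is meant to remove such cells. The summed stellate (284 to 293 against 181 to 188 CPM) and endothelial (292 to 300 against 221 to 250 CPM) markers were also lower under the KO label. The stellate sum fell largely with Reln, whose values are given above. The macrophage sum was lower too (567 to 568 against 513 to 517 CPM), but 3 of the 8 macrophage markers were called higher and 1 lower. The part of these cell types in the Igfbp3 difference was not tested.

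Within 1000 kb, 15 neighbours were tested, of which 7 fell and 4 rose, and 4 fell by over 2-fold. Among all tested genes, 17.5% were lower and 16.7% higher. DESeq2 called 3 of the 15 lower and 2 higher. Without EP300 WT replicate 1, 4 fell and 1 rose, and without EP300 WT replicate 2, 3 fell and 1 rose. Adcy1 and Igfbp3 were among those that fell in both. Of the 4 that fell by over 2-fold, Npc1l1 and Ramp3 had at most 2.31 CPM in any library. Ramp3 missed the threshold with DESeq2 (DESeq2 adjusted p = 0.097) and with no filter on low counts (edgeR adjusted p = 0.162). It also missed when EP300 WT replicate 2 (log2 fold change -1.08) or EP300 KO replicate 2 (-1.45) was left out. Tbrg4, 582 kb from Igfbp1, rose by 0.44 (SE 0.08, edgeR adjusted p = 0.000422). The next tested gene on the far side, Tns3, lay 1234 kb away with a log2 fold change of -0.07 (SE 0.07).

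**Figure D3:**
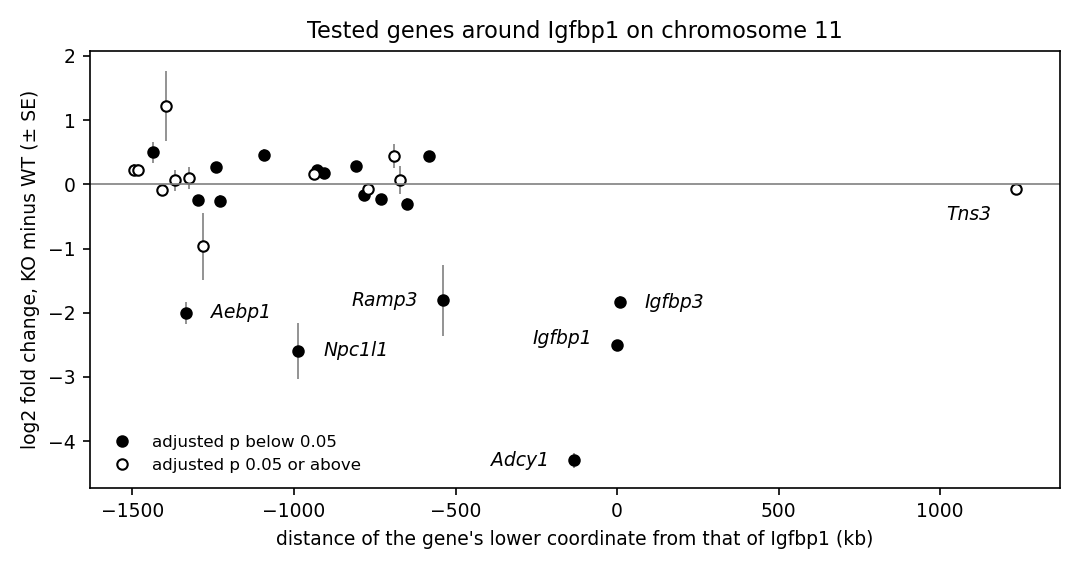
Log2 fold change (KO-labelled minus WT-labelled, ± SE) of every tested gene within 1500 kb of Igfbp1, against the distance of its lower coordinate from that of Igfbp1 in kb; filled points have an adjusted p below 0.05. Adcy1 at -4.30, Igfbp1 at -2.50 and Igfbp3 at -1.83 lie side by side, and the other points below -1 are Ramp3, Npc1l1 and Aebp1.

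The genes with the profile closest to that of Igfbp1 were sought over the 4 libraries, by the Euclidean distance between centred log2 CPM profiles. Since replicates of a label were close, this distance mainly ranks genes by how near their log2 fold change lies to that of Igfbp1. Only genes with a mean of at least 10 CPM were compared. The closest genes were Eno1b (distance 0.119), Scd2 (0.136), Cyp17a1 (0.164), Kif5c (0.168) and Akr1b7 (0.214). All but Scd2 had a KO-labelled mean under 10 CPM (3.46 to 7.72 CPM) and passed that minimum only through the WT label. Nothing is therefore read from their likeness to Igfbp1. Eno1b is an enolase copy whose reads may be shared with its parent gene, Scd2 a fatty acid desaturase, Cyp17a1 a steroid hydroxylase, Kif5c a kinesin motor and Akr1b7 an aldo-keto reductase. Their log2 fold changes lay between -2.62 and -2.44. None is among the 10 genes, whose closest to Igfbp1 was Ppargc1a at a distance of 2.03. Within the pathway lists described next, the closest above that minimum were Psat1 (0.588), a serine synthesis enzyme, Igfbp3 (0.712) and Pdk4 (1.01). Fgf21, with a log2 fold change of -2.65, lay below the minimum and was not compared.

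Beyond the 10 genes, 160 genes of insulin action and fasting were taken from 8 lists, none of which holds a member. Of the 159 tested, 54 rose and 41 fell by edgeR's adjusted p. The share called among all genes with a mean of at least 10 CPM was 42.6% (23% higher, 19.6% lower), and 34.2% among all tested.

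Other FOXO1 targets went both ways, as did the members. Of 20, 8 rose and 5 fell (3 fell without EP300 WT replicate 2), with a median log2 fold change of 0.04 against -0.01 for all genes. Pdk4, the kinase that shuts pyruvate out of oxidation in fasting, fell with Igfbp1, from 84.2 and 82.7 CPM to 26.9 and 32.0 CPM (log2 fold change -1.50, SE 0.08, edgeR adjusted p = 9.38e-10). Ccng2, an atypical cyclin, fell by 0.60 (SE 0.09). Bcl6, a transcriptional repressor, rose from 7.57 and 5.66 CPM to 51.6 and 45.6 CPM (2.88, SE 0.12, edgeR adjusted p = 3.60e-11). G0s2, an inhibitor of triglyceride lipase, rose by 1.97 (SE 0.07). Among FOXO1 targets, therefore, Igfbp1 and Pdk4 were lower by over 2-fold while G6pc, Bcl6 and G0s2 were higher.

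The wider gluconeogenic set moved mainly with G6pc and Pck1. Of 20 genes of gluconeogenesis and glucose output, 11 rose and 2 fell, with a median log2 fold change of 0.25. Sds, serine dehydratase, rose by 0.95 (SE 0.06; 29.6% of its exon bases lie in another gene), and Tat, tyrosine aminotransferase, rose from 2049 and 2066 CPM to 4053 and 3607 CPM (0.90, SE 0.05, edgeR adjusted p = 2.99e-09). Slc37a4, which carries glucose-6-phosphate to G6pc in the endoplasmic reticulum and is named after its values were seen, rose by 0.73 (SE 0.06), the same step as G6pc. The ubiquitous catalytic subunit G6pc3 did not pass (0.13, SE 0.18). The members that fell were Pck2, the mitochondrial form of Pck1, with -1.04 (SE 0.14), and Gk, glycerol kinase, with -1.01 (SE 0.07).

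Of 35 genes of insulin and IGF receptor signalling, 6 rose and 6 fell by edgeR, and 23 did not pass (median log2 fold change 0.04). The share called, 34.3%, was near the 34.2% of all tested genes. These counts moved with the WT-labelled libraries: 5 genes were called without EP300 WT replicate 1, and 0 higher and 2 lower without EP300 WT replicate 2, where edgeR gave 6 higher and 5 lower at an unadjusted p below 0.05. DESeq2 called 5 higher and 5 lower with all libraries. The largest falls were in Trib3, a pseudokinase that inhibits Akt (-1.12, SE 0.11), and in Grb10, an adaptor that dampens the insulin receptor (-0.97, SE 0.19). Sos1, which activates Ras, rose by 0.39 (SE 0.10), and Sh2b1, an adaptor that promotes insulin receptor signalling, by 0.36 (SE 0.07). Akt2, the main hepatic Akt kinase downstream of insulin, rose by 0.22 (SE 0.06), and Foxo3, a relative of Foxo1, by 0.29 (SE 0.06). Without EP300 WT replicate 2, Sos1 (adjusted p = 0.0972), Sh2b1 (adjusted p = 0.0528), Akt2 (adjusted p = 0.151) and Foxo3 (adjusted p = 0.0609) missed the threshold. Without EP300 WT replicate 1, Sos1 (adjusted p = 0.0917), Akt2 (adjusted p = 0.114) and Foxo3 (adjusted p = 0.0666) did so too. Igf1r, the receptor of IGF1, was scarce, with 3.73 and 2.75 CPM in WT-labelled and 2.43 and 3.50 CPM in KO-labelled libraries.

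Genes that insulin induces did not move as a block. Of 15, 4 rose and 7 fell (median log2 fold change -0.04), and 3 fell without EP300 WT replicate 1, as did 3 without EP300 WT replicate 2. Angptl8, a feeding-induced inhibitor of lipoprotein lipase, fell from 86.7 and 88.8 CPM to 33.8 and 37.0 CPM (-1.31, SE 0.07, edgeR adjusted p = 1.10e-09). Pnpla3, a lipase-family protein of lipid droplets with at most 2.998 CPM in any library, fell by 1.54 (SE 0.34) and missed the threshold without EP300 WT replicate 1 (adjusted p = 0.0730). Me1, malic enzyme, rose by 1.17 (SE 0.08) and Elovl6, a fatty acid elongase, by 0.49 (SE 0.07).

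Among regulators of the fasting response, 12 of 29 rose and 8 fell (median log2 fold change 0.09). Without EP300 WT replicate 2, 7 rose and 3 fell, and 9 of the 29 were called in all without EP300 WT replicate 1, of which 1 fell. Ppargc1b, the relative of Ppargc1a, went the opposite way to it, from 5.31 and 3.997 CPM to 13.2 and 11.4 CPM (1.40, SE 0.16, edgeR adjusted p = 6.47e-06). Cebpb, a transcription factor of gluconeogenic promoters, rose by 1.22 (SE 0.10), with 20.7% of its exon bases in another gene. Gcgr, the glucagon receptor, rose by 0.26 (SE 0.06) and missed the threshold without EP300 WT replicate 2 (adjusted p = 0.0807). Foxa3, a forkhead factor of hepatocytes, fell by 0.50 (SE 0.07), and Crtc3, a CREB coactivator, by 0.51 (SE 0.12), the latter not without EP300 WT replicate 1 (adjusted p = 0.112).

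Fasting genes under PPARA, the fatty acid receptor, were likewise split, with 8 of 15 higher and 4 lower (median log2 fold change 0.25). Fgf21, a fasting hormone, fell from 13.9 and 12.9 CPM to 1.73 and 2.53 CPM (-2.65, SE 0.18, edgeR adjusted p = 1.49e-08), a fall of the size of that of Igfbp1. Vnn1, a pantetheinase, fell by 0.92 (SE 0.10). Acot1, an acyl-CoA thioesterase, rose by 1.78 (SE 0.11) and Fabp1, the liver fatty acid carrier, by 1.49 (SE 0.05).

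In the IGF system that Igfbp1 serves, 3 of 9 tested genes rose and 2 fell (median log2 fold change 0.10). Ghr, the growth hormone receptor, rose from 129 and 133 CPM to 359 and 309 CPM (1.35, SE 0.07, edgeR adjusted p = 4.72e-10). Igfals, which stabilizes IGF1 in serum complexes, rose by 0.48 (SE 0.06). Igf1 measured 387 and 380 CPM against 482 and 449 CPM (0.28, SE 0.06, edgeR adjusted p = 0.00113, and 0.0718 without EP300 WT replicate 2). Igfbp4, the other abundant binding protein, measured 1899 and 1836 CPM against 1943 and 2049 CPM and did not pass (0.10, SE 0.05). Igf2r, which clears IGF2, fell by 0.42 (SE 0.08; adjusted p = 0.0761 without EP300 WT replicate 2). Igf2 had 19 and 8 counts in WT-labelled and 0 and 2 in KO-labelled libraries and was too scarce to test.

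Igfbp1 is also known to be induced by amino acid shortage and stress through ATF4 and by hypoxia. Of 16 targets of these pathways, 7 fell and 2 rose (median log2 fold change -0.34). Phgdh, the entry enzyme of serine synthesis, fell by 2.62 (SE 0.17), and Ankrd37, a hypoxia target with 26.4% of its exon bases in another gene, by 2.29 (SE 0.26). Pdk1, a hypoxia-induced kinase of pyruvate dehydrogenase, rose by 0.39 (SE 0.07), and Vegfa, the endothelial growth factor, by 0.23 (SE 0.06). Vegfa missed the threshold under library size scaling, with no filter on low counts and without EP300 WT replicate 1 (adjusted p = 0.0835) or 2 (adjusted p = 0.181), which left 1 gene of the list higher.

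**Figure D4:**
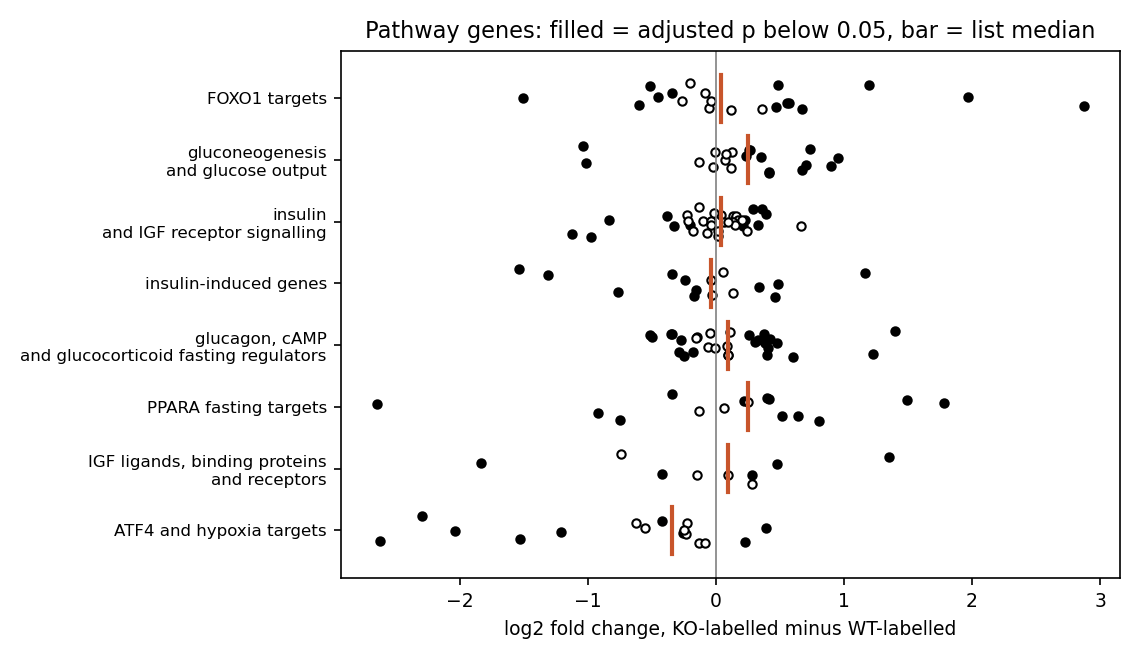
Log2 fold change (KO-labelled minus WT-labelled) of the tested genes of the 8 pathway lists, 1 point per gene, filled where the adjusted p is below 0.05, with the list median as a bar; the vertical scatter within a list has no meaning. Genes of glucose output lie mainly to the right (11 of 20 higher), and each list holds called genes on both sides.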

How the data were processed

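For the EP300 experiment, the deposited table holds raw counts by gene, as whole numbers, with a column per library. The submitters' processing notes list STAR, HTSeq, DESeq2 and mm10 without saying what each did, and the counting annotation and strand setting are not given in the sources used here. The TruSeq kit named in the labels does not mark strand, so reads of antisense partners cannot be told apart by strand. How reads in bases shared by genes were counted is not known. The table has 4 further columns that match no sample and were not used, nor were the diet experiment's tables, whose identifiers do not pair with mouse genes.

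Of 55385 identifiers, 55144 matched a symbol and position in GENCODE M21 (mm10). Libraries were grouped and numbered by their titles. Counts were tested with edgeR 4.0.16 in R 4.3.3 (TMM scaling, group alone in the model, quasi-likelihood F test, 2 residual degrees of freedom, genes kept by filterByExpr at a minimum of 10), with Benjamini-Hochberg adjustment over all 14200 genes tested and a threshold of 0.05. Every adjusted p comes from edgeR unless DESeq2 is named. SE was taken as |log2 fold change| over the root of F. RPKM is CPM per 1000 bases of merged exon. The common biological coefficient of variation was 5.47%. The fit was tested on simulated data.

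The 10 genes and the 8 lists were chosen with earlier results of these data known. Named genes were the members, Ep300, up to 2 called genes with the largest change in each direction per list, a fixed set of receptors, ligands and paralogues, and the 5 genes (and 3 list genes) most like Igfbp1, among genes with a mean of at least 10 CPM and a pseudocount of 0.5; others are said to be named after their values were seen. Replicates differed by more than sampling noise (chi-square per degree of freedom 2.60 and 5.50). Alternatives were DESeq2 1.42.0, RLE and library size scaling, no filter or a filter of 1 CPM in 2 libraries, removal of the 20 most abundant genes, a block for the replicate number, and omission of each library in turn.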

Additional observations from a re-analysis of the deposited data

How the results depend on the processing

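The 10 genes kept their direction in 11 alternatives, except Foxo1, which was near zero throughout; the number past the threshold ran from 5 to 8. The median log2 fold change of all genes was -0.07 under library size scaling and between -0.01 and 0.01 in the other alternatives. With 2 libraries a label and 1 when a library is left out, the lone library is assumed to vary like the others, and depth limits statements on genes under about 3 CPM. With no filter on low counts, 2703 genes were called (1416 higher, 1287 lower), against 4851. Without a filter, 2 FOXO1 targets fell, 7 genes of insulin and IGF receptor signalling were called with 3 of them higher, 4 insulin-induced genes fell, 12 fasting regulators were called with 2 of them lower, 1 gene of the IGF system fell, and 1 ATF4 or hypoxia target rose, as 1 did under library size scaling. DESeq2 called 1614 genes lower, 5 of them fasting regulators. The cause of these shifts was not tested.

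With each library left out in turn, the genes called ran from 2311 to 5154 (1163 to 2574 higher, 1148 to 2580 lower). FOXO1 targets that fell ran from 3 to 7, called genes of insulin and IGF receptor signalling from 2 to 14 (0 to 7 higher by edgeR, where 6 were higher at an unadjusted p below 0.05; 2 to 8 lower), insulin-induced genes from 7 to 11 (3 to 7 lower), fasting regulators from 9 to 20 (7 to 14 higher, 1 to 8 lower), and ATF4 and hypoxia targets that rose from 1 to 2. The low ends came without a WT-labelled library.

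With the replicate number as a block, 5190 genes were called and 7 of the 10 members stayed past the threshold. Same-numbered libraries did not deviate together (correlation -0.00075). With 2 libraries a label, this gave no sign of a pairing by number but cannot exclude one.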

Other observations

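The neighbours of the other 9 genes were counted in the same way as those of Igfbp1, within 500 kb on either side, and again with each library left out. G6pc, in a gene-dense part of chromosome 11, had 31 tested neighbours, of which 5 rose and 8 fell (2 rose without EP300 WT replicate 1, and 3 rose and 5 fell without EP300 WT replicate 2). Pck1 had 8, with 2 higher and 2 lower (1 higher without EP300 WT replicate 1). Irs2 had 9, with 4 lower, and 3 or 4 lower with any library left out. Insr, on the same chromosome, had 9, with 4 higher, which became 1 without EP300 WT replicate 1 and 2 without EP300 WT replicate 2, while Insr itself was lower. Fbp1 (1 higher of 6, and 0 without either KO-labelled library), Igfbp2 (1 lower of 3, and 0 without EP300 WT replicate 2) and Irs1 (1 lower of 5, 0 without EP300 WT replicate 2, and 2 lower with 1 higher without EP300 KO replicate 2) had few called neighbours, and Foxo1 and Ppargc1a had no tested gene in that window. These counts stand beside 16.7% higher and 17.5% lower among all tested genes and carry no test. The repeats with a library left out were chosen after seeing the data.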
